A study of Mus musculus with 8 samples.

Results

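The genes described here encode the voltage-gated sodium channel complex of neurons, and were followed between the dorsal and the ventral part of the mouse medial entorhinal cortex (MEC). They are 9 of the 38553 genes in the deposited table, chosen by symbol: the alpha subunits *Scn1a*, *Scn2a1* (named *Scn2a* in GENCODE), *Scn3a* and *Scn8a*, the beta subunits *Scn2b*, *Scn3b* and *Scn4b*, and the FGF homologous factors *Fgf13* and *Fgf14*. A voltage-gated sodium channel has 1 large alpha subunit, which forms the pore and opens on depolarization to start the action potential, and smaller beta subunits, which modify its gating and placement. FGF homologous factors are intracellular proteins that bind the tail of the alpha subunit and shape its inactivation. In cortical neurons the channels are concentrated at the axon initial segment and the nodes of Ranvier.

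RNA was sequenced from 4 dorsal and 4 ventral libraries of male C57BL/6JolaHsd mice aged 8 weeks, with no treatment in either group. A sagittal slice of 400 µm was cut from the right MEC of each of 13 mice, and dorsal and ventral tissue was pooled within 4 groups of 3 to 4 mice. The spread between libraries, against which the tests set each difference, is therefore that between pools. Both regions came from the same groups of mice, but no label ties a library to a group, so the libraries were compared as unpaired. The question was which transcripts differ along the dorsoventral axis, along which the scale of grid firing fields changes. Values are FPKM, which correct the number of fragments for exon length and library depth, a scale on which levels of different genes can be set side by side. The number of fragments behind each value is not given here, so the precision of low values rests on the replicates alone.

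The column headers and the regions used here disagree for 4 of the 8 libraries. The columns were assigned so that their means equal the dorsal and ventral means in the authors' comparison table, which held within 0.1% for 13388 of 13400 genes, whereas the next best of the 70 possible assignments matched 294. The dorsal libraries, numbered 1 to 4, are then those headed D1, V1, D2 and V2, and the ventral libraries 1 to 4 those headed D3, V3, D4 and V4. With the regions of the headers instead, 1 of 14989 genes passed the test given below and no member did (775 genes had an unadjusted p under 0.05). With the 4 libraries on which both sources name the same region, 0 genes passed in limma and 1323 had an unadjusted p under 0.05. Every comparison below holds only for the first assignment.

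Most members lie in gene clusters. On chromosome 2 (GRCm38, GENCODE M21) *Scn3a* spans 65457118 to 65567627 on the minus strand, *Scn2a1* spans 65620771 to 65767447 on the plus strand and *Scn1a* spans 66270778 to 66440840 on the minus strand. *Scn3a* and *Scn2a1* are 53.1 kb apart. On chromosome 9 *Scn2b* (45117782 to 45130070) and *Scn4b* (45138395 to 45154152) follow each other on the plus strand at a distance of 8.3 kb, and *Scn3b* (40269217 to 40291618) lies further up the chromosome. *Scn8a* is on chromosome 15 (100869858 to 101045938), *Fgf14* on chromosome 14 (123977907 to 124677127) and *Fgf13* on the X chromosome (59062145 to 59568071).

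The sequences before the starts of *Scn1a* and *Scn2a1* are shown because these genes, the most abundant of the 4 alpha subunits, had different dorsoventral patterns. They lie 503.3 kb apart on chromosome 2. The sequences are from RefSeq on GRCm38.p6, read 5′ to 3′ on the strand of the gene and cut before the first exon base of a protein-coding gene. Capitals mark a CCAAT box (CCAAT) or a TATA box (TATAAA), which were searched on both strands together with the GC box GGGCGG and the E-box CACGTG.
*Scn1a*, chr2:66440841-66441087, minus strand: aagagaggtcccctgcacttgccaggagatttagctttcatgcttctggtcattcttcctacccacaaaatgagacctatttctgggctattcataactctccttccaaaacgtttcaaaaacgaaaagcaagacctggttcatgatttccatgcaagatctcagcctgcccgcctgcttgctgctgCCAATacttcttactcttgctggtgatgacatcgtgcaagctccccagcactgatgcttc
*Scn2a1*, chr2:65620519-65620768, plus strand: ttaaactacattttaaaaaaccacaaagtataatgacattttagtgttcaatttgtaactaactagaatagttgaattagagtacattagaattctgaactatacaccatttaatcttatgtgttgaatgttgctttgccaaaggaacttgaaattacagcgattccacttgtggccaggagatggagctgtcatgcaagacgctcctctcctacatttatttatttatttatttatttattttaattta
*Scn2a1*, second start, chr2:65668436-65668685, plus strand: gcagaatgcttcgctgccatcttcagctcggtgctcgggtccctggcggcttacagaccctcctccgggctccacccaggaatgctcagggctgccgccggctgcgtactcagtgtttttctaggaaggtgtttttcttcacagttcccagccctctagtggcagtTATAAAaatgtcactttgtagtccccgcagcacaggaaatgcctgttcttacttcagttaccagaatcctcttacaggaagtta
The *Scn1a* window held CCAAT, starting 63 bases before the RefSeq start (position -63), a motif found in 33.8% of 32851 mouse promoter windows of 250 bases. The first *Scn2a1* window held none of the 4 motifs and had a GC content of 29.6%, against a median of 52.4% over all windows. The second *Scn2a1* window held TATAAA at position -84, as 12.4% of all windows did. These matches describe letters and not binding. Most of the *Scn1a* window also lies in the first exon of *Gm13629*, a noncoding gene on the other strand, which had 2.26 FPKM in dorsal and 2.09 FPKM in ventral MEC and did not pass the test (limma, adjusted p = 0.764).

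A gene was called D>V or V>D when limma on log2(FPKM + 1) gave a Benjamini-Hochberg adjusted p under 0.05 over all 14989 genes tested and the mean FPKM of one region was over 20% above that of the other. Of the 9 members, all tested, *Scn1a* and *Scn4b* were called D>V, *Scn3b* was called V>D, and 6 were not called. Over all genes tested 3.44% were called, 2.07% as D>V and 1.37% as V>D. For 5 members the values of the 2 regions did not overlap, as for 11.1% of all genes. In 4 of them, *Scn1a*, *Scn8a*, *Scn4b* and *Fgf14*, the dorsal values were higher (6.02% of all genes), and in *Scn3b* the ventral values were (5.07%). The median log2 ratio of ventral to dorsal FPKM was -0.12 over the members and -0.01 over all genes tested. Since this is bulk tissue, fewer cells that express a gene and less RNA per cell cannot be told apart.

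**Figure D1:**
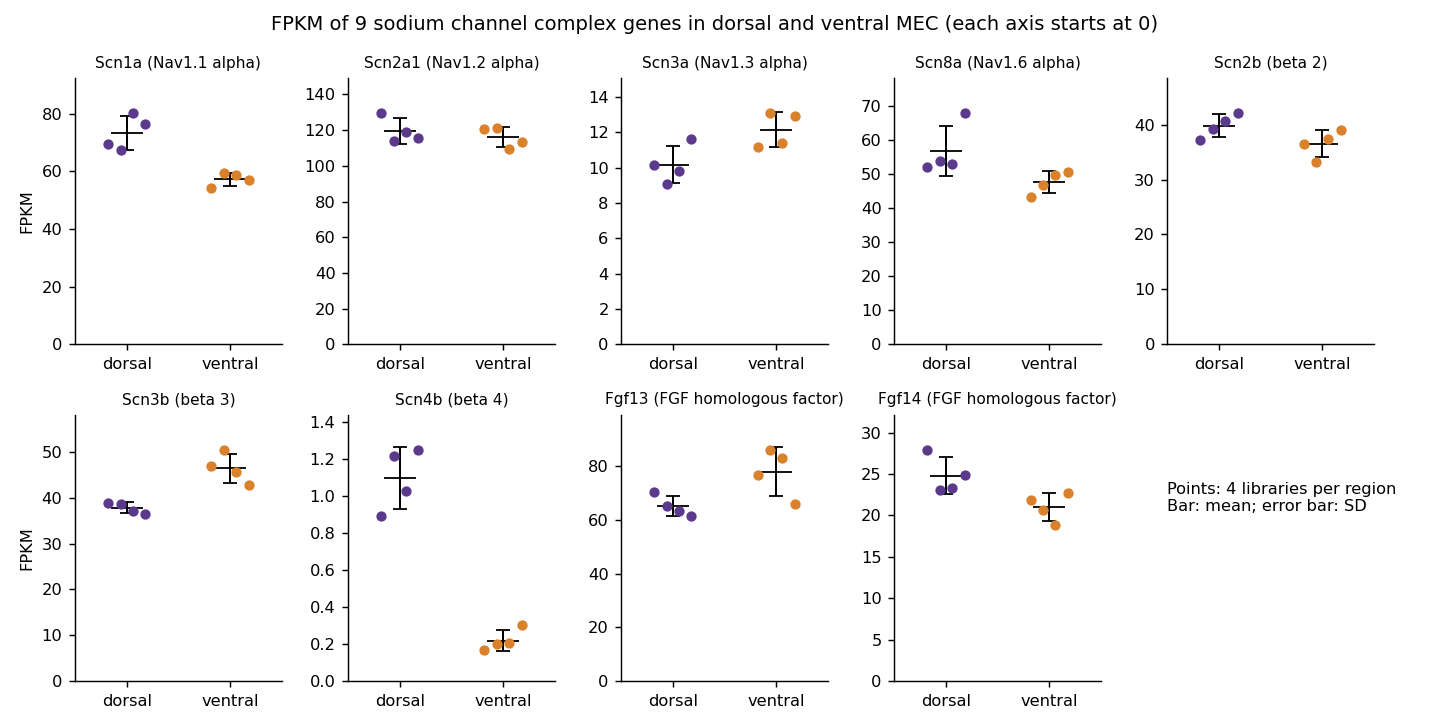
FPKM (vertical axes, each from 0) of the 9 members in 4 dorsal (purple) and 4 ventral (orange) libraries, with the mean and SD. The dorsal points of *Scn4b* lie between 0.892 and 1.25 and the ventral points between 0.167 and 0.300, while those of *Scn2a1* overlap.

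Levels per length spread widely within the complex. *Scn2a1* had the highest mean over the 8 libraries (117.8 FPKM), followed by *Fgf13* (71.6), *Scn1a* (65.3), *Scn8a* (52.2), *Scn3b* (42.2), *Scn2b* (38.1), *Fgf14* (22.9), *Scn3a* (11.2) and *Scn4b* (0.656). The order of some neighbours went by region. *Fgf13* was above *Scn1a* in all 4 ventral libraries and in 1 of 4 dorsal libraries, and *Scn3b* stood to *Scn2b* in the same way. The ranges of *Scn8a* overlapped both those of *Scn1a* and of *Scn3b*, although *Scn1a* was above *Scn8a* in all 8 libraries. *Scn2a1* stood above every other member, *Scn2b* above *Fgf14*, *Fgf14* above *Scn3a* and *Scn3a* above *Scn4b* with no overlap of their ranges.

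*Scn1a*, which encodes Nav1.1, an alpha subunit known for its role in fast-spiking interneurons, was higher in dorsal MEC. Its dorsal libraries had 69.4, 67.4, 80.2 and 76.4 FPKM and its ventral libraries 54.0, 59.2, 58.6 and 57.0 FPKM. Every dorsal library lay above every ventral library. The dorsal mean of 73.3 ± 5.97 FPKM was 28.2% above the ventral mean of 57.2 ± 2.32 FPKM (SD, n = 4 each), with a limma log2 fold change of -0.35 (SE 0.07, adjusted p = 0.0227, ventral minus dorsal). The call was lost when the libraries were rescaled to one total FPKM (log2 fold change -0.30, adjusted p = 0.0613), and it held in 4 of 8 fits that each left out 1 library, with adjusted p of 0.0632 without dorsal library 3, 0.0641 without dorsal library 4, 0.0798 without ventral library 1 and 0.0550 without ventral library 4.

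*Scn2a1*, which encodes Nav1.2, the alpha subunit of excitatory neurons that is prominent early in development, had nearly equal means. Its dorsal libraries had 129.6, 113.8, 119.1 and 115.4 FPKM and its ventral libraries 120.9, 121.0, 109.7 and 113.3 FPKM. The ventral values lay partly within and partly below the dorsal range. The log2 fold change was -0.04 with a 95% interval from -0.18 to 0.11 (limma, adjusted p = 0.834).

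*Scn8a* encodes Nav1.6, the main alpha subunit of mature nodes and initial segments. Its dorsal libraries had 52.2, 54.0, 52.9 and 67.9 FPKM and its ventral libraries 43.3, 46.9, 49.7 and 50.6 FPKM. All dorsal values lay above the ventral ones, by a small gap, and dorsal library 4 stood apart from the other 3. The difference did not pass the adjusted threshold (log2 fold change -0.24, SE 0.09, unadjusted p = 0.0243, adjusted p = 0.219 in limma), and without dorsal library 4 the log2 fold change was -0.15. *Scn3a*, which encodes Nav1.3, an alpha subunit best known from embryonic brain, was the least abundant alpha subunit of the 4, with 9.08 to 11.6 FPKM in dorsal and 11.2 to 13.1 FPKM in ventral libraries, ranges that overlap. Its log2 fold change was 0.24 (95% interval 0.04 to 0.43, limma, adjusted p = 0.203).

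The 4 alpha subunits summed to 244.3 to 271.2 FPKM in dorsal and 229.3 to 240.2 FPKM in ventral libraries, without overlap. *Scn1a* made up 28.2% ± 1.71 of this sum dorsally and 24.5% ± 0.82 ventrally, and *Scn2a1* made up 46.0% ± 2.92 and 49.8% ± 2.19 (SD, n = 4 each). *Scn3a* made up 3.72 to 4.28% of the dorsal and 4.86 to 5.53% of the ventral sums. The share of *Scn8a* overlapped between the regions, at 19.98 to 25.0% and 18.9 to 21.7%.

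Among the beta subunits, *Scn4b* and *Scn3b* were called in opposite directions. *Scn4b* encodes the beta 4 subunit, which is linked by a disulfide bond to the alpha subunit and is known for promoting resurgent sodium current. Its dorsal libraries had 0.892, 1.22, 1.02 and 1.25 FPKM and its ventral libraries 0.167, 0.198, 0.205 and 0.300 FPKM. The lowest dorsal value was well above the highest ventral one. The dorsal mean of 1.095 ± 0.17 FPKM was 5.04 times the ventral mean of 0.217 ± 0.06 FPKM (SD, n = 4 each), and the limma log2 fold change on the log2(FPKM + 1) scale, which understates the change of genes at such low levels, was -0.78 (SE 0.10, adjusted p = 0.00278). With a constant of 0.1 in place of 1 it was -1.92 (adjusted p = 0.00380). *Scn4b* was called in all 8 fits that left out 1 library, but its mean FPKM is under 1, so that it was not tested with a stricter filter on low values, and with the 4 libraries whose headers name the same region its log2 fold change of -0.65 did not pass (adjusted p = 0.380).

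*Scn3b* encodes the beta 3 subunit, which associates with the channel without a covalent bond. Its dorsal libraries had 39.0, 38.7, 37.2 and 36.6 FPKM and its ventral libraries 46.9, 50.5, 45.7 and 42.8 FPKM. The dorsal values were close to each other and all below the ventral ones. The ventral mean of 46.5 ± 3.2 FPKM was 22.7% above the dorsal mean of 37.9 ± 1.16 FPKM (SD, n = 4 each), with a limma log2 fold change of 0.29 (SE 0.06, adjusted p = 0.0363). The direction was kept in all 8 fits that left out 1 library, with log2 fold changes from 0.25 to 0.32 and adjusted p from 0.0343 to 0.106, but the call was kept in 1 of 8, the fit without ventral library 4, and it was lost with rescaling to one total FPKM (adjusted p = 0.0820).

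*Scn2b* encodes the beta 2 subunit, which like beta 4 is bound to the alpha subunit by a disulfide bond, and lies next to *Scn4b* on chromosome 9. Its dorsal libraries had 37.1, 39.3, 40.6 and 42.1 FPKM and its ventral libraries 36.4, 33.2, 37.4 and 38.9 FPKM. These values overlapped, and the log2 fold change was -0.12 with a 95% interval from -0.27 to 0.03 (limma, adjusted p = 0.423). Together the 3 beta subunits had 77.0 to 79.9 FPKM in dorsal and 82.1 to 83.9 FPKM in ventral libraries. *Scn4b* was a small part of this sum, 1.16 to 1.56% in dorsal and 0.200 to 0.366% in ventral libraries, and *Scn3b* went from 48.1% ± 2.09 to 55.9% ± 3.36 (SD, n = 4 each).

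The FGF homologous factors were not called. *Fgf13* had 70.4, 65.3, 63.5 and 61.6 FPKM in dorsal and 76.9, 86.2, 83.3 and 65.8 FPKM in ventral libraries. Ventral library 4 lay within the dorsal range and the other 3 above it. The log2 fold change was 0.25 (95% interval 0.06 to 0.44, limma, adjusted p = 0.178). *Fgf14* had 27.9, 23.1, 23.3 and 24.9 FPKM in dorsal and 21.9, 20.6, 18.9 and 22.7 FPKM in ventral libraries, with every dorsal value above every ventral one. Its log2 fold change was -0.23 (95% interval -0.41 to -0.05, limma, adjusted p = 0.183).

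**Figure D2:**
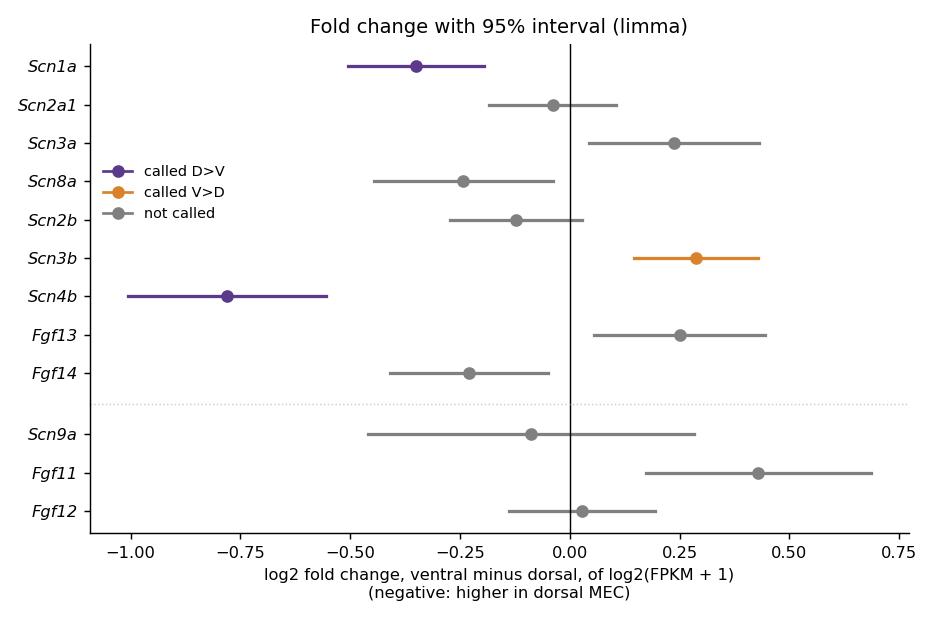
Limma log2 fold change of log2(FPKM + 1), ventral minus dorsal (horizontal axis, points), with its 95% interval (lines) for the 9 members and, under the dotted line, 3 other sodium channel and FGF homologous factor genes. The intervals of *Scn1a* and *Scn4b* (called D>V) lie below 0 and that of *Scn3b* (called V>D) above 0, while several intervals of genes not called also leave out 0, since calls rest on p-values adjusted over all genes.

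Ratios between members within a library do not depend on how libraries were scaled to each other. Of 5 ratios compared with an exact two-sided permutation test over the 70 arrangements of 8 libraries, whose smallest p is 0.0286, 4 reached that value (adjusted over the 5 ratios, p = 0.0357). The ratio of *Scn1a* to *Scn2a1* was 0.535, 0.592, 0.673 and 0.662 in dorsal and 0.447, 0.490, 0.534 and 0.502 in ventral libraries, a difference of -0.32 in mean log2 ratio. The highest ventral ratio came close to the lowest dorsal one without reaching it. The ratio of *Scn3b* to *Scn2b* was 0.956 ± 0.08 dorsally and 1.28 ± 0.18 ventrally (SD, n = 4 each), a log2 difference of 0.42. The ratio of *Scn4b* to *Scn2b* was 0.0275 ± 0.0034 in dorsal and 0.0059 ± 0.0013 in ventral MEC (SD, n = 4 each), a log2 difference of -2.23. As *Scn2b* lay between 33.2 and 42.1 FPKM in all libraries, this ratio mostly restates the difference of *Scn4b* itself.

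The ratio of *Fgf13* to *Fgf14* was 2.52, 2.83, 2.72 and 2.47 in dorsal and 3.51, 4.18, 4.41 and 2.90 in ventral libraries, a log2 difference of 0.49. This ratio separated the regions, with ventral library 4 nearest to the dorsal values, and *Fgf14* alone separated them too. Neither gene was called, but calls rest on p-values adjusted over all genes tested, and the ratio's p only over the ratios. Before adjustment, p was 0.0169 for *Fgf13* and 0.0178 for *Fgf14* in limma and 0.0286 for the ratio in the exact permutation test. These p-values do not show that the ratio differed more clearly than the single genes. The ratio of *Scn8a* to *Scn2a1* overlapped between the regions (0.403 to 0.589 in dorsal, 0.358 to 0.453 in ventral libraries, exact permutation p = 0.200, also after adjustment). With 1 library left out in turn, the 4 ratios that differed had adjusted p of 0.0476 to 0.0714 in the exact permutation test. Their regions stayed apart in each case, which follows from their not overlapping with all libraries. With so few arrangements p moves in coarse steps, and its adjusted value also depends on the other ratios. Neither the separation nor these p-values show whether a ratio rests on 1 library. With the regions of the column headers no ratio passed (adjusted p = 0.943 for each).

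**Figure D3:**
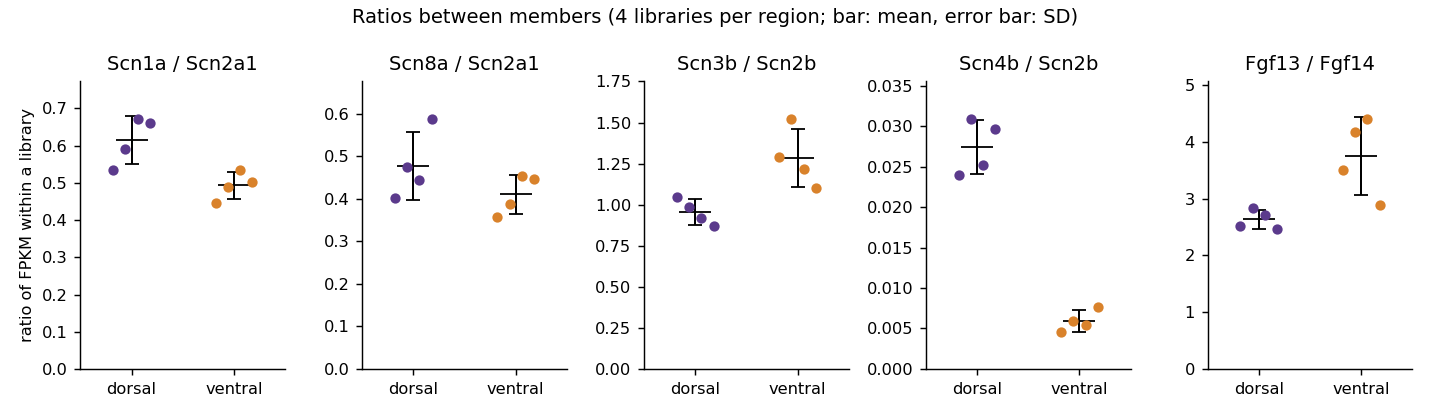
Ratio of the FPKM of 2 members within a library (vertical axes, each from 0) for 5 pairs, with 4 dorsal (purple) and 4 ventral (orange) libraries, the mean and the SD. The regions do not overlap for 4 pairs and overlap for *Scn8a* to *Scn2a1*.

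Of the other subunits and FGF homologous factors, 4 of 9 had enough alignments to be tested and 0 were called by limma (2404 of all 14989 genes, 16.0%, had an unadjusted p under 0.05). *Fgf11* had 13.7 to 19.7 FPKM in dorsal and 19.1 to 24.5 FPKM in ventral libraries (log2 fold change 0.43, adjusted p = 0.0795 in limma). *Fgf12* and *Scn9a*, which encodes Nav1.7, had log2 fold changes of 0.03 and -0.09. The alpha subunit genes *Scn4a*, known from skeletal muscle, *Scn7a*, and *Scn10a* and *Scn11a*, known from sensory neurons, had too few alignments to be tested.

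In the wider pathway 40 of 45 listed genes were tested, 1 was called D>V and 1 V>D, and their median log2 ratio was -0.03. *Cntnap1*, which encodes Caspr, a protein of the paranodal junction between axon and myelin, was the D>V gene. It had 17.9, 18.3, 18.1 and 18.9 FPKM in dorsal and 14.4, 13.3, 14.5 and 13.4 FPKM in ventral libraries (log2 fold change -0.38, limma, adjusted p = 0.00731). The other 9 tested genes of the axon initial segment and node, among them the scaffold gene *Ank3* (260.5 to 320.7 FPKM in dorsal, 229.0 to 270.7 FPKM in ventral libraries), were not called and had log2 ratios between -0.16 and 0.17. The V>D gene was *Fxyd6*, which encodes a regulator of the sodium pump and lies 216.0 kb from *Scn4b* on chromosome 9. It had 30.7, 27.8, 27.9 and 28.8 FPKM in dorsal and 52.5, 45.3, 48.1 and 48.4 FPKM in ventral libraries (log2 fold change 0.73, limma, adjusted p = 0.000391). The other 11 genes of the sodium pump and sodium leak had log2 ratios between -0.18 and 0.10, and the 14 channel regulators, which include kinases, calmodulins and the secretases that cleave beta subunits, between -0.17 and 0.16.

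Markers of other cell types that moved along the same axis are given beside the D>V members. All 8 oligodendrocyte markers were called D>V, with a median log2 ratio of -0.86 and summed values of 896.1 to 1188 FPKM in dorsal and 491.1 to 649.2 FPKM in ventral libraries. Of 7 markers listed for parvalbumin interneurons, *Pvalb* (15.7 ± 2.15 and 6.63 ± 0.96 FPKM, SD, n = 4 each, limma, adjusted p = 0.00106) and *Syt2* (7.60 ± 0.72 and 3.02 ± 0.41 FPKM, SD, n = 4 each, limma, adjusted p = 0.000414) were called D>V and the other 5 were not, with a median log2 ratio of 0.07 over the list and sums of 105.4 to 112.0 FPKM in dorsal and 91.7 to 98.1 FPKM in ventral libraries. No gene was called among 6 markers of GABAergic neurons (206.2 to 211.0 FPKM in dorsal, 215.8 to 223.3 FPKM in ventral libraries), 5 of glutamatergic neurons (242.3 to 273.1 and 226.9 to 251.4 FPKM), 5 of all neurons (3894 to 5124 and 3366 to 4355 FPKM), 5 of astrocytes (153.7 to 164.0 and 170.9 to 185.1 FPKM), 6 of microglia (40.7 to 44.1 and 45.0 to 49.5 FPKM) or 4 of endothelial cells (12.1 to 16.4 and 8.67 to 13.2 FPKM). Of 5 markers of oligodendrocyte precursors, *Olig1* was called D>V, and the list summed to 36.0 to 40.3 FPKM in dorsal and 31.6 to 35.3 FPKM in ventral libraries. No marker of these lists was at 0 FPKM in any library. The part of these cell types in the differences of *Scn1a*, *Scn4b* and *Scn3b* was not tested.

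**Figure D4:**
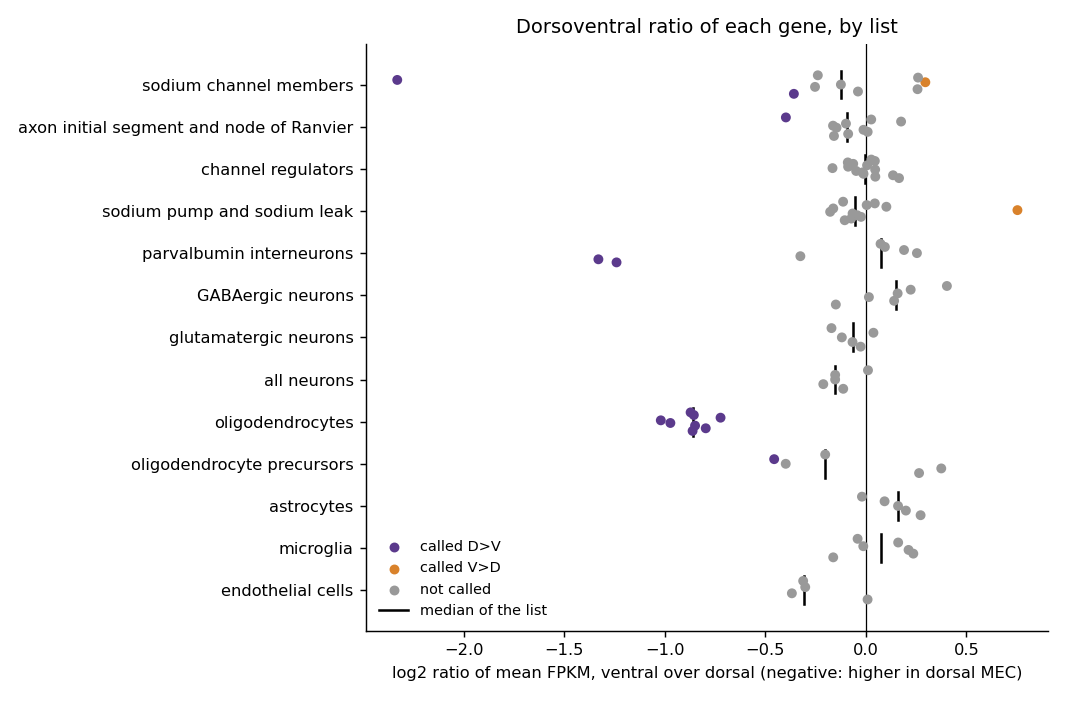
Log2 ratio of mean FPKM, ventral over dorsal (horizontal axis), of each tested gene (points) in the members, 3 pathway lists and 9 cell type marker lists, with the median of each list as a bar. *Scn4b* has the lowest value shown, -2.33, the oligodendrocyte markers lie together around a median of -0.86, and the other lists of neuronal genes have medians between -0.15 and 0.15.

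For each member whose regions did not overlap, the 3 genes with the most similar profile over the 8 libraries were taken by Pearson's r of log2(FPKM + 1), as a description in which the shared dorsoventral difference and the shared libraries enter. Those of *Scn1a* were *Cnp*, an enzyme gene of myelinating cells (r = 0.986), *Sytl2* (0.9749) and *Insc* (0.971), each called D>V. Those of *Scn4b* were *Tmtc1* (0.993), *Rap1gds1* (0.992) and *Gcnt4* (0.991), each called D>V as well. *Scn3b* was most like *Slc26a4* (0.986) and *Igfbp2* (0.982), both V>D, and *AL513014.1* (0.977), which was not called. The genes nearest to *Scn8a* were *Slc1a2*, the gene of an astrocytic glutamate transporter (0.981), *Uhrf1bp1l* (0.971) and *Kcnip4* (0.968), and those near to *Fgf14* included *Zc2hc1a* (0.983) and *Entpd7* (0.969), none of them called.

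The alpha subunit genes resemble each other in sequence. Of the 50-base stretches in the annotated transcripts, 4.03% for *Scn1a*, 5.76% for *Scn2a1* and 6.49% for *Scn3a* also occurred in a transcript of another gene, mostly other alpha subunits of the same cluster, against 0.0374% for *Scn8a* and 0 for *Scn3b* and *Scn4b*. *Fgf14* shares 220 exon bases with the noncoding gene *Gm28932* on the other strand, and *Cntnap1* overlaps *Plekhh3* (0.964 FPKM in dorsal and 1.19 FPKM in ventral MEC), so that without strand their reads cannot be told apart there.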

How the data were processed

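Per the labels and methods, cDNA was made from 120 ng of RNA (RIN 7.1 to 8.5). The authors used CASAVA 1.8, TopHat2 2.0.8, Ensembl release 73 (GRCm38) and Cuffdiff 2. The deposited FPKM values, scaled between libraries by Cuffdiff, were used as they stood. The authors' columns of fold changes, p-values and q-values were not used, nor were 4 further columns of per-sample values and a table of fragment numbers whose libraries could not be matched to samples, so no count test was run. Genes with enough alignments by the authors' mark and a mean FPKM of at least 0.1 were tested (14989). Limma 3.58.1 (R 4.3.3, mean-variance trend) compared log2(FPKM + 1) between regions, two-sided. In simulated data with independent normal spread it recovered 85 of 100 genes changed by 1 on the log2 scale and 61 of 100 changed by 0.5, with 6.41% of its calls elsewhere. The changed genes all had a mean FPKM of at least 1. *Scn4b* lies under that level and the other members had log2 fold changes smaller than 0.5, so these rates do not cover the members. Ratios used exact permutation tests (SciPy 1.17.1). Python 3.11.15, NumPy 2.4.6, pandas 2.3.3 and matplotlib 3.10.9 were used.

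The members and lists were chosen with earlier results of these data known. The genes named are the members, every called gene of the 4 pathway lists, those not called by counts, range and examples, marker list genes, and, for each member whose regions did not overlap, the 3 genes with a mean FPKM of at least 1 that correlated best with it. *Gm13629*, *Gm28932* and *Plekhh3* are named for their overlap with these. Some genes taken by this rule are not reported here. Alternatives changed the constant added to FPKM, the filter on low values, the threshold of 20%, the scaling, the libraries and the source of their regions. RefSeq promoter sequences were matched for 7 of the 9 members.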

Additional observations from a re-analysis of the deposited data

Results flagged for a closer look

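*Scn8a* in dorsal MEC was the only 1 of 28 sets of 4 libraries (members and ratios, by region) in which 1 library stood apart by Dixon's criterion. Dorsal library 4 had 67.9 FPKM and the other 3 had 52.2 to 54.0 FPKM, a gap of 0.887 of the range. About 1 in 20 such sets is expected to pass by chance.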

How the results depend on the processing

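A constant of 0.1 or 0.5 and quantile normalization each left the calls of the 9 members and of the 2 pathway genes as they were. So did no filter on FPKM and no threshold on the ratio, but neither could have removed a call. Without the filter the same 14989 genes were tested, and dropping the threshold can only add calls. With a mean FPKM of at least 1, 1 member was D>V, as *Scn4b* was not tested. With rescaling to one total FPKM, 1 member was D>V and 0 were V>D, 2 pathway genes were V>D, and D>V genes made up 49.8% of all calls against 60.1% (quantile normalization 55.7%), with a median log2 fold change over the genes tested of 0.04 against -0.01, and *Scn2a1* changed sign (0.0104). With the headers' regions, 1 gene was D>V and 0 were V>D, none of them members or pathway genes. Log2 fold changes reversed for *Scn8a* (0.13), *Scn2b* (0.0140), *Scn3b* (-0.00505), *Scn4b* (0.13), *Fgf13* (-0.0801) and *Fxyd6* (-0.0741), and the log2 differences of the 5 ratios were 0.0418 (*Scn1a* to *Scn2a1*), 0.18 (*Scn8a* to *Scn2a1*), -0.0195 (*Scn3b* to *Scn2b*), 0.37 (*Scn4b* to *Scn2b*) and -0.0814 (*Fgf13* to *Fgf14*). With the 4 libraries whose headers name the region used here, 0 genes were called in either direction. The cause of these changes was not tested.

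Leaving out 1 library gave 168 to 348 D>V and 95 to 191 V>D genes, with both lowest V>D counts, 95, without dorsal library 2 or ventral library 1. Members called D>V ranged from 1 to 2 and V>D from 0 to 1, and pathway genes from 1 to 1 and 1 to 2. The log2 fold change of *Scn2a1* ranged from -0.0612 to 0.00062, the latter without dorsal library 1. Log2 differences of the ratios ranged from -0.38 to -0.27 (*Scn1a* to *Scn2a1*), -0.29 to -0.10 (*Scn8a* to *Scn2a1*), 0.33 to 0.49 (*Scn3b* to *Scn2b*), -2.36 to -2.11 (*Scn4b* to *Scn2b*) and 0.41 to 0.61 (*Fgf13* to *Fgf14*), with adjusted p of the exact permutation test of 0.171 to 0.429 for *Scn8a* to *Scn2a1* and, for the others, of 0.0714 or, for the last 3 without a ventral library, 0.0476. For the ratios other than *Scn8a* to *Scn2a1* the regions did not overlap whichever library was left out. This follows from their not overlapping with all libraries. Their p-values move in coarse steps with so few arrangements, and the adjusted values also depend on the other ratios. No paired analysis was possible because, although both regions were dissected from the same groups of mice, no label ties a column to a sample or a group, and with the regions used here no dorsal and ventral column share a header number (1 and 2 against 3 and 4).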
